A study of Aedes aegypti with 33 samples.

Results

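A20 cells, a continuous cell line derived from the mosquito Aedes aegypti, were compared after 72 h in SF900 II without serum and without added heme (0 μM heme) and after 72 h in Leibovitz’s L-15 medium with fetal bovine serum (FBS), the regular growth media of the line. The comparison used every library that the sample labels place in these groups, 3 with SF900 II and 3 with L-15, which are 6 of the 33 libraries of the series. SF900 II is an insect cell medium made for use without serum. The basal medium therefore changed together with the serum, and an effect of the medium and an effect of the serum cannot be told apart in A20 cells. Serum also brings heme, and the study lists SF900 II as the heme-deficient medium of this line. The supply of heme thus changed with serum and medium in this comparison. A further A20 group, SF900 II with 10 μM heme added for the same time, entered the fit and is given beside the results where it bears on them. RNA with a poly(A) tail was sequenced from 3 biological replicates per treatment, and all A20 cells had been kept in L-15 with FBS beforehand.

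Heme is the iron-bearing ring that hemoglobin carries and that respiratory cytochromes and many other enzymes need. A female mosquito takes in a large load of it with each blood meal, and insects handle its iron with storage proteins, iron-binding proteins in the hemolymph and metal transporters. Cultured insect cells receive from serum growth factors, lipids, iron-binding proteins and traces of heme, and L-15 is a medium in which galactose takes the place of glucose.

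The study designed RT-qPCR primers for 14 of the genes measured here, and 2 of these pairs are shown because their genes changed in this comparison. The first pair belongs to AAEL015458, the gene with the largest increase among those called at a false discovery rate of 0.0001 with a mean of at least 10 CPM (counts relative to the library total), and the second to AAEL012440, a sodium-bile acid cotransporter. Letters run 5′ to 3′ as the primer list of the study gives them, and capitals mark the last 5 bases at the 3′ end of each primer, from which the polymerase extends.
AAEL015458 forward: atgatggagcgatccGATGT
AAEL015458 reverse: tacgcgcatttggatTCAGG
AAEL012440 forward: ggtgagttcaacgtaTCGGG
AAEL012440 reverse: cgtgaacaccttgtcGATGA

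Between 23843591 and 27053044 reads were counted per library in SF900 II, and between 24345247 and 27586128 in L-15 with FBS. Levels are in CPM, reads counted for a gene relative to the total of its library, after scaling by the trimmed mean of M values (TMM), and log2 fold changes are for SF900 II over L-15 with FBS. Within a group the libraries lay at distances of 1.68 to 2.00 in SF900 II and 1.90 to 2.03 in L-15 (root mean square log2 difference over the 500 genes that differed most in each pair), and between the groups at 3.89 to 4.27. In each group replicate 1 stood apart from replicates 2 and 3. The chi-square per degree of freedom between counts was 36.5 to 44.2 for pairs with replicate 1, against 10.97 and 11.15 for replicates 2 and 3. The 10 μM heme libraries were spread more widely, at 2.50 to 3.41, which enters the common estimate of the error. In bulk RNA, fewer cells of one kind and less RNA per cell cannot be told apart. No defining marker of the A20 line was at hand, and the line was taken from the labels.

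Of 19712 genes listed, 12249 held enough counts to be tested. At the false discovery rate (FDR) of 0.0001 that the study used, 53 genes (0.433% of those tested) changed, 49 (0.4%) higher and 4 (0.0327%) lower in SF900 II (edgeR quasi-likelihood F test, Benjamini-Hochberg adjustment). At an FDR of 0.05, 3614 genes (29.5%) changed, 1839 (15%) higher and 1775 (14.5%) lower. The increases were larger than the decreases. Among the calls at 0.05, 1188 genes were more than 2-fold higher and 274 more than 2-fold lower, and 598 were more than 4-fold higher against 34 more than 4-fold lower. In 6991 genes (57.1%) the 2 groups did not overlap, 3451 (28.2%) with all SF900 II libraries above and 3540 (28.9%) with all below. The median called change was 2.56-fold upward and 1.55-fold downward. The number of calls at 0.0001 rested on single libraries. It was 0 without replicate 2 or without replicate 3 of L-15 (quasi-likelihood test, with 4239 and 4313 genes at an unadjusted p under 0.05, and 572 and 583 genes called at FDR 0.0001 by the exact test of edgeR), 9 without replicate 1 of L-15, 6 without replicate 2 or replicate 3 of SF900 II, and 571 without replicate 1 of 10 μM heme. At 0.05 the number ranged from 2117 to 5639 over the same omissions, and gene groups are therefore described at 0.05. With replicate 1 of both groups left out, 2 genes were called at 0.0001 and 2369 at 0.05. The exact test of edgeR, which the study names, called 1153 genes (9.41%) at 0.0001, among them all 53.

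**Figure D1:**
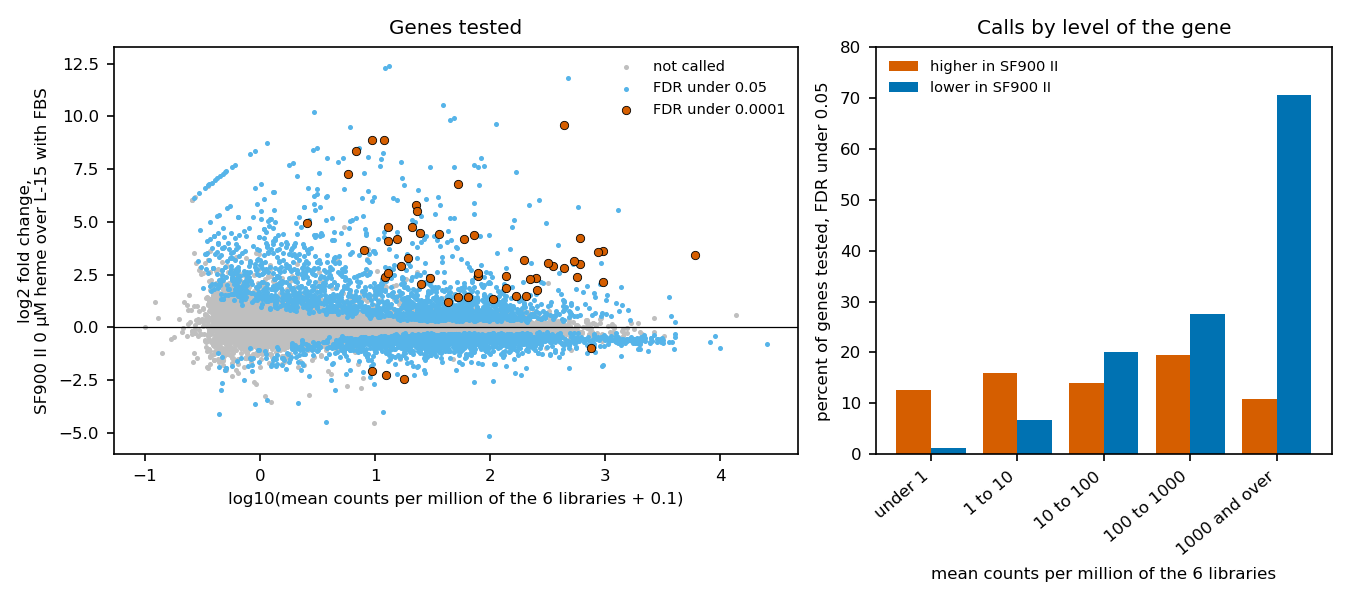
Left, each point is 1 of the 12249 genes tested, with its mean CPM over the 6 libraries (log10 scale, with 0.1 added) across and its log2 fold change, SF900 II 0 μM heme over L-15 with FBS, upward. Right, bars give the percentage of genes called at FDR 0.05 in each class of mean CPM: 70.5% of the 139 genes at 1000 CPM and over were lower and 10.8% higher in SF900 II, against 1.24% lower and 12.7% higher under 1 CPM.

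The direction of change went with the level of a gene, taken as the mean of the same libraries that were compared. A gene with few counts could pass the filter through the group where it was higher. Of the 139 genes with a mean of 1000 CPM or more over the 6 libraries, 98 were lower and 15 higher in SF900 II at FDR 0.05, with a median log2 fold change of -0.56. Of the 1935 genes under 1 CPM, 24 were lower and 246 higher, with a median of 0.32. Between them the lower share was greater in each higher class, at 6.74% for 1 to 10 CPM, 20.1% for 10 to 100 CPM and 27.6% for 100 to 1000 CPM, while the higher share was 16.1%, 14.1% and 19.5% in the same classes. The 10 most abundant genes took 10.0% to 10.6% of the counts in SF900 II and 10.99% to 11.5% in L-15. Scaling by library size alone moved the median log2 fold change of all genes by 0.12 and gave 2000 higher and 1211 lower calls at 0.05, so that 62.3% of the calls were upward in place of 50.9%.

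AAEL015458 had the largest called increase of any gene with a mean of at least 10 CPM and a call at FDR 0.0001. It was at 1024, 784 and 806 CPM in SF900 II, against 0.384, 1.27 and 1.75 CPM in L-15 with FBS. The gene was thus among the more abundant ones in every SF900 II library and nearly silent in every L-15 library. Its counts summed to 78601 in SF900 II and 94 in L-15, a ratio of 856 with a 95% exact interval of 699 to 1059 that covers counting error only, and its fitted log2 fold change was 9.60 ± 0.55 (SE, adjusted p = 1.7e-05, edgeR quasi-likelihood test). The sources of descriptive names used here give this gene none, and it was listed by its identifier as a transferrin. With 10 μM heme in SF900 II it was at 1.93, 0.547 and 1.08 CPM, so that the high level was seen in 1 of the 3 A20 groups. Its adjusted p lay between 1.9e-06 and 0.00038 when each of the 9 libraries was left out in turn.

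AAEL014382 was at 18.2, 25.8 and 27.9 CPM in SF900 II, and had 4 counts in all over the 3 L-15 libraries, a ratio of 558 with a counting interval of 218 to 2051. AAEL001794 was at 77.5, 117 and 117 CPM, against 0.704, 1.05 and 1.02 CPM in L-15 (log2 fold change 6.81 ± 0.40). AAEL009722 was at 37.98, 50.4 and 46.3 CPM, against 0.640, 1.197 and 0.582 CPM (5.80 ± 0.30). For each of these the lowest SF900 II library exceeded the highest L-15 library by more than an order of magnitude. AAEL002595, AAEL021557, AAEL011622, AAEL007626, AAEL003156 and AAEL004533 had log2 fold changes of 5.53, 4.77, 4.76, 4.49, 4.44 and 4.20. AAEL024741 was the most abundant of them, at 945, 1277 and 1208 CPM in SF900 II, against 62.3, 59.9 and 57.4 CPM in L-15 (4.25 ± 0.33). Of these, the gene with a descriptive name was AAEL011007, annotated as fibrinogen and fibronectin, a family whose fibrinogen-related members in mosquitoes are secreted proteins that bind microbes. It was at 81.5, 168 and 162 CPM in SF900 II, against 3.97, 7.67 and 8.26 CPM in L-15 (4.37 ± 0.35, adjusted p = 9.8e-05, edgeR quasi-likelihood test). In SF900 II, replicate 1 was the library nearest to the L-15 mean for 35 of the 53 genes called at 0.0001 (66%). The share was 63% of the genes called higher and 66.2% of those called lower at 0.05, so it was not particular to the 53.

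**Figure D2:**
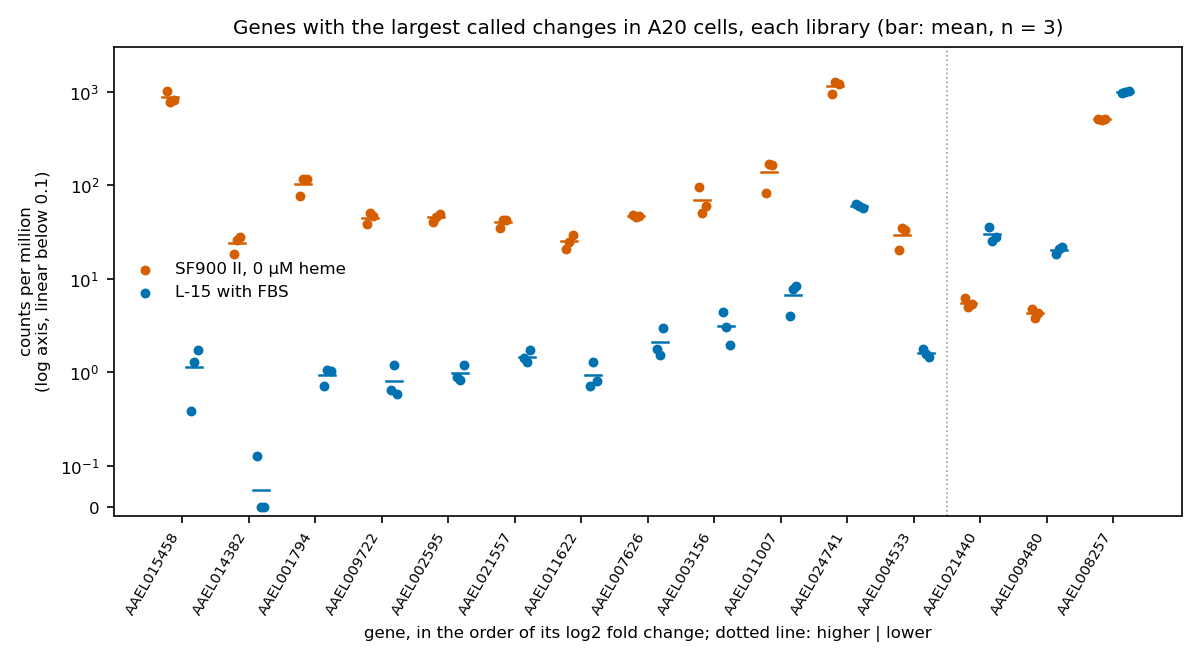
CPM of each library (vertical axis, logarithmic above 0.1) for the 12 genes with the largest and the 3 with the smallest log2 fold change among those called at FDR 0.0001 with a mean of at least 10 CPM; points are libraries, SF900 II 0 μM heme on the left and L-15 with FBS on the right of each gene, and bars are means (n = 3 each). Genes were chosen among those whose groups do not overlap, and AAEL015458 lay at 784 to 1024 CPM in SF900 II and at 0.384 to 1.75 CPM in L-15.

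The next genes called at 0.0001 were chosen with their values known, for their level or their name. AAEL022334 was the most abundant, at 9570, 11963 and 11682 CPM in SF900 II, against 1296, 943 and 846 CPM in L-15 (log2 fold change 3.43 ± 0.19). AAEL019767 averaged 1782 ± 310 CPM in SF900 II and 145 ± 12.1 CPM in L-15 (SD, n = 3 each), and AAEL026833 averaged 1614 ± 258 CPM in SF900 II and 138 ± 11.5 CPM in L-15. None of these 3 genes has a descriptive name in the sources used. Beside AAEL011007, 2 of the 49 increased genes do. Gamma-glutamyl hydrolase (AAEL000271), which trims the glutamate tail of folates, was at 309, 304 and 299.99 CPM in SF900 II, against 116, 106 and 107 CPM in L-15 (1.47 ± 0.10). Glycerol kinase (AAEL008472), which brings glycerol into lipid and sugar metabolism, was at 20.5, 20.9 and 19.2 CPM, against 4.54, 3.89 and 3.13 CPM (2.39 ± 0.16).

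A set of 30 genes was under 1 CPM in each L-15 library and over 10 CPM in each SF900 II library, and no gene met the reverse condition. These levels chose the genes, so their calls are not given as a result. AAEL003857 was the most abundant, at 614, 1164 and 1065 CPM in SF900 II, against 0.192, 0.337 and 0.255 CPM in L-15. Its counts summed to 86229 and 22, a ratio of 4010 with a counting interval of 2648 to 6399. AAEL025975 had 7058 counts in SF900 II and 4 in L-15, and AAEL003832 had 8797 and 8. AAEL001077 and AAEL004522 had 2408 and 2189 counts in SF900 II and no count in any L-15 library, which makes them at least 821-fold and at least 747-fold higher against a floor of 3 counts over the L-15 group. Replicate 1 of SF900 II was the lowest of its group for all 5 of these genes, and still far above L-15. None of the 30 genes has a descriptive name here. In 10 μM heme, 6 of the 30 were under 1 CPM in each library and 1, AAEL000642, was over 10 CPM in each, at 327, 53.6 and 14.1 CPM.

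At FDR 0.0001, 4 genes were called lower in SF900 II. AAEL021440 was at 6.28, 5.01 and 5.35 CPM in SF900 II, against 36.0, 25.6 and 28.2 CPM in L-15 (log2 fold change -2.43 ± 0.18, adjusted p = 6.5e-05, edgeR quasi-likelihood test). AAEL009480 was at 4.72, 3.79 and 4.34 CPM, against 18.4, 20.7 and 22.0 CPM (-2.25 ± 0.14). Both were between 4-fold and 6-fold lower. AAEL008257 was a smaller and very even decrease of an abundant gene, at 508, 499.8 and 510 CPM in SF900 II, against 974, 995 and 1021 CPM in L-15 (-0.98 ± 0.08). AAEL005777, which fell below the 10 CPM used to choose named genes, was at 3.43, 3.37 and 4.01 CPM, against 13.1, 16.7 and 15.8 CPM. None of the 4 has a descriptive name. The exact test of edgeR called 360 genes lower at the same FDR.

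Iron and heme genes rose more often than they fell. Of 9 genes of this group, all tested, 6 were higher and 1 lower at FDR 0.05, against 15% and 14.5% of all genes tested. Their median log2 fold change was 1.60 beside -0.01 for all genes tested. Transferrin (AAEL011641), an iron carrier of the hemolymph, was at 19.7, 17.9 and 16.2 CPM in SF900 II, against 5.37, 3.82 and 4.69 CPM in L-15 (1.95 ± 0.18, adjusted p = 0.00017, edgeR quasi-likelihood test). On AaegL5 it lies on chromosome 3 from 281619118 to 281626580 and overlaps AAEL019569 by 74 bases. The ZIP family iron transporter AAEL014762 was at 167, 192 and 181 CPM, against 48.5, 46.3 and 46.7 CPM (1.93 ± 0.51, adjusted p = 0.020, edgeR quasi-likelihood test). The study places it in endocytic vesicles and gives it a role in the export of iron from the midgut. AAEL007383 and AAEL007385, listed by identifier as ferritins and without a descriptive name in the sources used, shared this size of change. AAEL007383 was at 1114, 929 and 917 CPM in SF900 II, against 376, 276 and 270 CPM in L-15 (adjusted p = 0.018, edgeR quasi-likelihood test), and AAEL007385 was at 1213, 1242 and 1187 CPM, against 415, 396 and 389 CPM (0.0091). AAEL008136, listed by identifier as heme oxygenase, was at 12.8, 18.0 and 18.3 CPM, against 8.48, 9.91 and 7.57 CPM (0.0048). The last of the 6 was AAEL015458, listed as a transferrin. With replicate 1 of SF900 II and of L-15 left out, the count of higher genes was 3.

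The standard errors of AAEL014762, AAEL007383 and AAEL007385 were wide for groups so far apart. Replicate 1 of 10 μM heme stood apart from the other replicates in the same genes, at 1716 CPM against 531 and 481 for AAEL007383, and at 156 CPM against 38.5 and 32.3 for AAEL014762. Fitted without that library, the adjusted p-values were 4.02e-05 for AAEL007383 and 1.9e-06 for AAEL014762. The call of AAEL007383 at 0.05 was lost without replicate 2 or without replicate 3 of L-15 (adjusted p = 0.0696 and 0.0703, edgeR quasi-likelihood test). That of AAEL014762 was lost without any 1 of the L-15 libraries and without replicate 2 or replicate 3 of SF900 II (0.054 to 0.069). Their fitted log2 fold changes stayed between 1.58 and 1.97 over these omissions.

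Some enzymes that make or attach heme were lower in SF900 II. Porphobilinogen synthase (AAEL002304), an early step of heme synthesis, was at 41.5, 38.3 and 38.4 CPM in SF900 II, against 53.3, 55.3 and 54.6 CPM in L-15 (log2 fold change -0.47 ± 0.10, adjusted p = 0.010, edgeR quasi-likelihood test). Coproporphyrinogen III oxidase (AAEL013389), a later step, was at 30.3, 32.1 and 34.7 CPM, against 43.1, 38.5 and 38.8 CPM, which did not pass (0.19). The zinc/iron transporter AAEL013756 did not pass either (0.15). Of genes outside the group, chosen with their values known, cytochrome c1 heme lyase (AAEL014630), which attaches heme to a respiratory cytochrome, was at 31.5, 26.8 and 25.6 CPM, against 57.2, 55.5 and 53.8 CPM (-0.99 ± 0.15). Sideroflexin (AAEL014526), a mitochondrial carrier protein, was at 64.5, 54.4 and 59.1 CPM, against 114, 140 and 148 CPM (-1.17 ± 0.14).

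**Figure D3:**
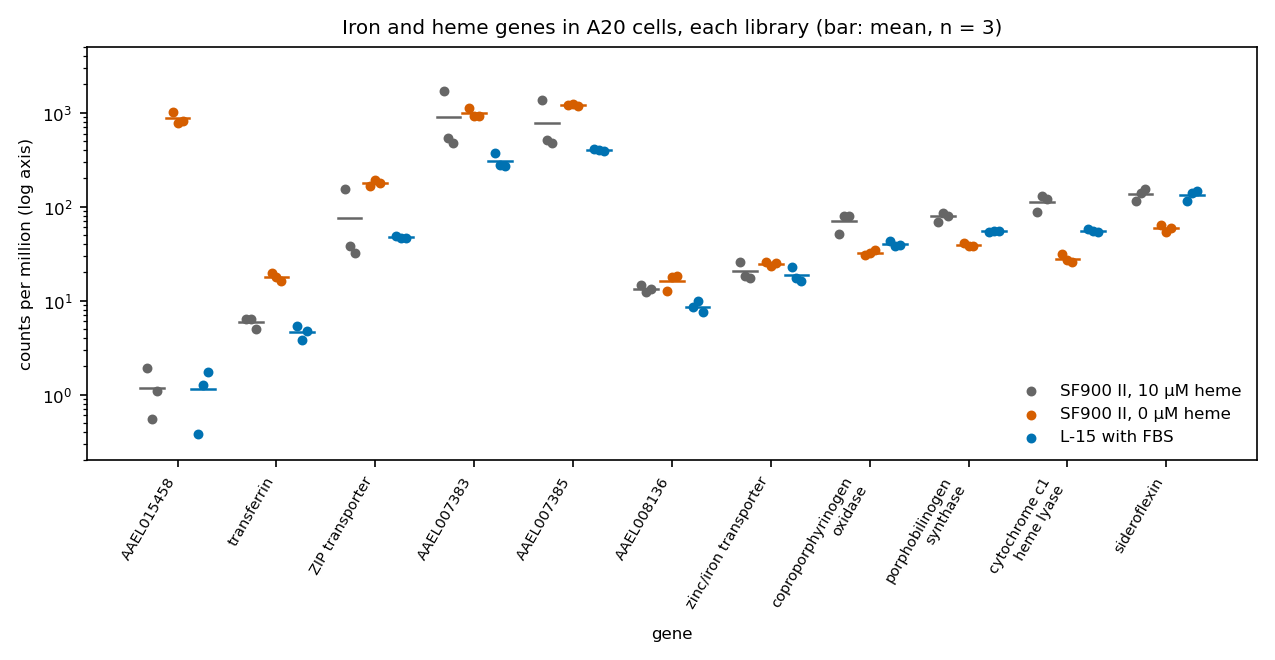
CPM of each library (vertical axis, logarithmic) for 11 iron and heme genes in the 3 A20 groups, 10 μM heme and 0 μM heme in SF900 II and L-15 with FBS; points are libraries and bars are means (n = 3 each). AAEL015458 was at 784 to 1024 CPM in 0 μM heme only, and replicate 1 of 10 μM heme, at 1716 CPM for AAEL007383 and 156 CPM for the ZIP transporter, lay above the other 2 libraries of its group.

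Most cytosolic ribosomal protein genes measured were lower in SF900 II. Of 27 cytosolic ribosomal protein genes tested, 24 were lower at FDR 0.05, against 29.1% of the named genes. In all 27 every SF900 II library lay below every L-15 library (28.9% of all genes tested did so). Their log2 fold changes ran from -0.74 to -0.33 with a median of -0.57, and 24 were also lower when libraries were scaled by library size alone. The count was 20 to 27 with each library left out in turn. Summed over the 27 genes the level was 32890 to 36600 CPM in SF900 II and 49720 to 53630 CPM in L-15. RpS6 (AAEL000032), a protein of the small ribosomal subunit, was at 2625, 2356 and 2194 CPM in SF900 II, against 3889, 4133 and 3990 CPM in L-15 (-0.74 ± 0.09, adjusted p = 0.00050, edgeR quasi-likelihood test). RpL32 (AAEL003396, rp49), a common reference gene of insect RT-qPCR, was at 552, 519 and 460 CPM, against 709, 753 and 718 CPM (adjusted p = 0.019, edgeR quasi-likelihood test). Elongation factor 1-alpha (AAEL017096), which brings tRNAs to the ribosome and was chosen with its values known, was at 21450, 17927 and 17447 CPM, against 32886, 33064 and 31431 CPM (-0.78 ± 0.11).

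Genes that build ribosomes were few in number here. All 4 tested genes of ribosome assembly were lower, among them the Pescadillo homolog (AAEL012980), needed for the large subunit, at 180, 158 and 154 CPM in SF900 II, against 278, 325 and 334 CPM in L-15 (log2 fold change -0.93 ± 0.11). The U3 small nucleolar ribonucleoprotein imp4 (AAEL004997) was at 35.1, 33.0 and 30.2 CPM, against 53.8, 57.1 and 53.9 CPM. Of 15 aminoacyl-tRNA synthetases 4 were lower, with a median of -0.21, a share near that of the named genes as a whole, of which 29.1% were lower. With library size alone the count was 0 (edgeR quasi-likelihood test, 2 at an unadjusted p under 0.05), as it was without replicate 2 or replicate 3 of SF900 II (4 at an unadjusted p under 0.05 in each), and it was 1 without replicate 1 and 2 without replicate 2 of L-15. The exact test of edgeR called 2. The binding protein of initiation factor 4E (4E-BP, AAEL001864), a brake on cap-dependent translation chosen with its values known, was also lower, at 110, 69.4 and 73.3 CPM, against 198, 176 and 176 CPM (-1.12 ± 0.20).

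Genes of the respiratory chain and of DNA replication were fewer still, and 29.1% of the named genes were lower at FDR 0.05. The 4 tested genes of the respiratory chain were all lower, among them succinate dehydrogenase (AAEL010608) at 242, 238 and 230 CPM in SF900 II, against 328, 373 and 360 CPM in L-15 (-0.58 ± 0.10). The count was 2 with library size alone, 2 without any 1 of the L-15 libraries or without replicate 3 of SF900 II, and 1 without replicate 2 of SF900 II. The ADP,ATP carrier (AAEL004855), which exchanges nucleotides across the inner mitochondrial membrane, was at 1557, 1420 and 1349 CPM, against 2367, 2632 and 2559 CPM. The ATP synthase beta subunit (AAEL003393) was at 177, 198 and 180 CPM, against 294, 369 and 296 CPM. Both were chosen with their values known. Of 7 genes of DNA replication and cell division 5 were lower, with a median of -0.59, and the small chain of ribonucleotide reductase (AAEL010691), which makes deoxynucleotides, was at 274, 240.2 and 256 CPM in SF900 II, against 261, 262 and 258 CPM in L-15, and did not pass. The licensing factor MCM3 (AAEL011811), part of the replicative helicase, was at 94.6, 63.7 and 69.8 CPM in SF900 II, against 137, 131 and 134 CPM in L-15 (-0.82 ± 0.15, adjusted p = 0.0044, edgeR quasi-likelihood test). Here replicate 1 of SF900 II lay nearest to L-15, and the count of 5 became 6 without it, 1 without replicate 2 and 2 without replicate 3 of SF900 II, 2 without replicate 2 and 3 without replicate 1 or replicate 3 of L-15, and 3 with library size alone.

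Among 9 chaperone and heat shock genes, 5 were lower and 3 higher, against 29.1% lower and 13.6% higher among the named genes. Chaperonin 60 (AAEL011584), which folds proteins in mitochondria, was at 182, 149 and 145 CPM in SF900 II, against 384, 308 and 295 CPM in L-15 (log2 fold change -1.06 ± 0.15). The heat shock proteins AAEL000301 and AAEL001052 were also lower, at means of 30.1 ± 0.51 CPM in SF900 II and 66.9 ± 7.39 CPM in L-15 for the first and of 169 ± 6.51 and 301 ± 29.7 CPM for the second. The l(2)efl gene AAEL013341, a small heat shock protein, was instead higher, at 14.1, 20.3 and 17.4 CPM, against 8.86, 8.27 and 8.88 CPM. The group thus moved in both directions. The higher count was 1 without replicate 1 or replicate 2 of L-15, and the lower count was 3 without replicate 2 of SF900 II or without replicate 2 or replicate 3 of L-15.

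Most of the immune recognition genes measured, and some serine proteases, were higher in SF900 II. Of 8 tested genes of immune effectors and recognition, 6 were higher at FDR 0.05, against 15% of all genes tested. Their median log2 fold change was 2.43, and the count was 4 to 6 with each library left out. Summed over the group, the level was 203 to 396 CPM in SF900 II and 31.4 to 36.4 CPM in L-15. Next to AAEL011007, a second gene annotated as fibrinogen and fibronectin (AAEL009384) was at 23.9, 61.2 and 65.3 CPM in SF900 II, against 2.50, 3.37 and 2.47 CPM in L-15 (4.17 ± 0.52, adjusted p = 0.00069, edgeR quasi-likelihood test). It overlaps AAEL009380 by 1912 bases, and reads of the pair may be counted for both. The serpin SRPN4 (AAEL013936), an inhibitor of serine proteases, was at 59.7, 114 and 114 CPM, against 8.51, 6.77 and 6.04 CPM (3.76 ± 0.57). In these 3 genes replicate 1 of SF900 II was the lowest of its group.

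CLIPA15 (AAEL002126), a protease homologue, was at 11.3, 1.81 and 26.6 CPM in SF900 II, against 0.320, 0.224 and 0.546 CPM in L-15, which spread over more than an order of magnitude within SF900 II and still did not overlap. The lysozyme LYSC7B (AAEL015404), which cuts bacterial cell walls, was at 1.46, 2.99 and 3.13 CPM, against 0.832, 1.46 and 1.24 CPM, so that 1 SF900 II library was level with the highest of L-15 (adjusted p = 0.045, edgeR quasi-likelihood test). It overlaps AAEL026531 by 12124 bases. Galectin GALE12 (AAEL009842), a sugar-binding protein, was at 15.9, 11.02 and 11.6 CPM, against 6.97, 7.48 and 8.08 CPM. Of 7 serine proteases 4 were higher (15% of all genes tested were), with a median of 1.27, and the count was 2 without replicate 3 of either group. The trypsin AAEL002273 was at 5.03, 7.79 and 8.51 CPM in SF900 II, against 1.60, 1.61 and 1.53 CPM in L-15 (2.17 ± 0.28), whereas the trypsin AAEL009853 was at 5.62, 6.05 and 5.65 CPM, against 5.31, 2.51 and 2.55 CPM, and did not pass (0.12). The serine protease AAEL002276 was at 6.42, 8.62 and 7.38 CPM, against 9.28, 10.8 and 11.9 CPM, and did not pass either. CLIPA15 is counted in both groups. Of 3 genes of Toll, IMD and JAK-STAT signalling, the Toll kinase PELLE (AAEL006571) and the adaptor MYD (AAEL007768) were higher, at 13.2 and 26.9 CPM in SF900 II and 8.08 and 19.99 CPM in L-15 on average, and the count was 1 without replicate 1 or replicate 2 of L-15 or without replicate 2 or replicate 3 of SF900 II. The third, the spaetzle-like cytokine SPZ4 (AAEL007897), was at 8.39, 8.03 and 9.42 CPM in SF900 II, against 13.1, 13.1 and 12.7 CPM in L-15, and did not pass (adjusted p = 0.0502, edgeR quasi-likelihood test).

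**Figure D4:**
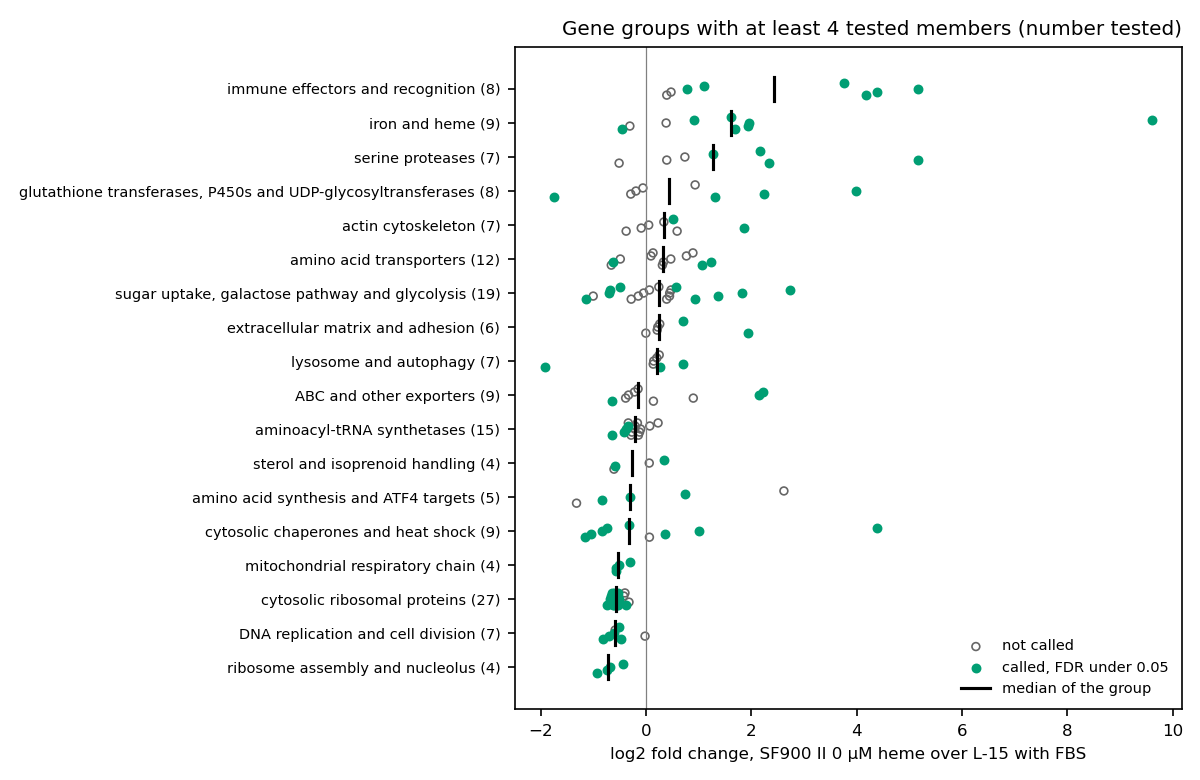
Log2 fold change, SF900 II 0 μM heme over L-15 with FBS (horizontal axis), of each tested member of the gene groups with at least 4 tested members; filled points were called at FDR 0.05, open points were not, and black bars are group medians. The 27 ribosomal protein genes lay between -0.74 and -0.33, and immune effectors and recognition between 0.39 and 5.17.

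Genes of sugar handling moved in both directions. Of 19 tested, 5 were higher and 4 lower, against 15% higher and 14.5% lower over all genes tested. Their median log2 fold change was 0.24, and the higher count was 3 without replicate 2 or replicate 3 of L-15. UDP-glucose 4-epimerase (AAEL007018), which interconverts the galactose and glucose forms of the nucleotide sugar, was at 78.7, 135 and 139 CPM in SF900 II, against 21.3, 16.9 and 14.9 CPM in L-15 (2.73 ± 0.27, adjusted p = 0.00022, edgeR quasi-likelihood test). Galactose-1-phosphate uridylyltransferase (AAEL001607), the step before it in galactose use, was lower, at 10.7, 14.5 and 13.4 CPM, against 18.7, 22.1 and 21.4 CPM. L-lactate dehydrogenase (AAEL012014) was at 78.9, 86.7 and 85.3 CPM, against 41.3, 26.7 and 29.2 CPM (1.37 ± 0.30). The glycolytic enzymes glucose-6-phosphate isomerase (AAEL012994) and glyceraldehyde-3-phosphate dehydrogenase (AAEL016984) averaged 127 and 922 CPM in SF900 II and 66.8 and 624 CPM in L-15, both higher. Among transporters, AAEL006432 was higher, at 22.5, 45.1 and 45.4 CPM, against 9.53, 10.1 and 12.5 CPM, while AAEL000902, the SWEET transporter AAEL006718 and the monocarboxylate transporter AAEL008028 were lower.

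Further metabolic genes were chosen with their values known. Acetyl-coenzyme A synthetase (AAEL020382), which activates acetate, was at 40.7, 32.6 and 29.9 CPM in SF900 II, against 7.26, 2.66 and 2.40 CPM in L-15 (log2 fold change 3.06 ± 0.41). The aminotransferase that opens the hexosamine pathway (AAEL009510) was at 73.1, 67.2 and 61.3 CPM, against 31.8, 20.9 and 21.7 CPM (1.44 ± 0.22). Both rose in SF900 II. Ornithine decarboxylase (AAEL014995), the first enzyme of polyamine synthesis, was at 52.0, 31.2 and 35.0 CPM, against 119, 137 and 136 CPM (-1.73 ± 0.18, adjusted p = 0.00026, edgeR quasi-likelihood test). Adenylosuccinate synthetase (AAEL003161), on the way to AMP, was at 256, 198 and 197 CPM, against 543, 593 and 585 CPM (-1.41 ± 0.15). Malic enzyme (AAEL001091), a source of NADPH, was at 248, 213 and 211 CPM, against 641, 450 and 428 CPM. Serine hydroxymethyltransferase (AAEL002510), which feeds one-carbon units into the folate cycle, was at 109, 83.1 and 79.8 CPM, against 171, 181 and 134 CPM. The group of amino acid synthesis and ATF4 targets, which holds this enzyme, moved in both directions, with 1 higher and 2 lower of 5, and 1 lower without any 1 of the L-15 libraries or without replicate 2 or replicate 3 of SF900 II. The other lower gene was pyrroline-5-carboxylate dehydrogenase (AAEL005422), at 174, 163 and 166 CPM in SF900 II, against 213, 211 and 197 CPM in L-15. Phosphoserine phosphatase (AAEL001100), the last step of serine synthesis, was the higher one, at 83.5, 79.4 and 75.9 CPM in SF900 II, against 55.8, 42.1 and 45.1 CPM in L-15. 3-hydroxyisobutyrate dehydrogenase (AAEL013904), of valine breakdown, was at 60.9, 70.6 and 64.0 CPM, against 255, 326 and 344 CPM. AAEL013902, annotated as programmed cell death protein 2, had nearly the same profile (55.9, 65.5 and 57.9 CPM, against 223, 286 and 297 CPM), but the 2 genes overlap by 13763 bases and their reads may not be separate.

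The remaining groups held few measured genes, and 15% of all genes tested were higher and 14.5% lower at FDR 0.05. Integrin alpha-ps (AAEL011038), a receptor for the extracellular matrix, was at 101, 120 and 122 CPM in SF900 II, against 36.1, 27.8 and 26.1 CPM in L-15 (log2 fold change 1.93 ± 0.25), and laminin beta-2 (AAEL003658) averaged 375 CPM in SF900 II and 232 CPM in L-15, the 2 called of 6 matrix and adhesion genes, which became 4 without replicate 1 of 10 μM heme. Gelsolin (AAEL006095), which severs actin filaments, was at 73.3, 105 and 102 CPM, against 21.9, 28.5 and 27.0 CPM, 1 of 2 called among 7 actin genes. The actin count was 1 without any 1 of the L-15 libraries or without replicate 2 or replicate 3 of SF900 II, and 4 without replicate 1 of 10 μM heme or with library size alone. In the group of glutathione transferases, P450s and UDP-glycosyltransferases 8 genes were tested, none of them a glutathione transferase. Of these, 3 were higher and 1 lower, or 2 lower without replicate 1 of L-15. Among the 3, CYP325Q2 (AAEL006058) was at 4.93, 0.348 and 0.486 CPM in SF900 II, against 0.128, 0.112 and 0.109 CPM in L-15. CYP9J2 (AAEL006805) was at 39.3, 62.8 and 57.2 CPM, against 23.7, 19.9 and 20.7 CPM, and CYP307A1 (AAEL009762), an enzyme of ecdysteroid synthesis in Drosophila, was at 77.5, 36.3 and 37.2 CPM, against 172, 171 and 167 CPM (-1.76 ± 0.27). The lysosomal alpha-mannosidase AAEL005749, which trims sugars from glycoproteins, was the 1 lower call of 7 lysosomal genes, at 131, 59.8 and 64.4 CPM in SF900 II, against 237, 357 and 373 CPM in L-15 (-1.92 ± 0.31). The lysosomal aspartic protease AAEL006169 averaged 1165 CPM in SF900 II and 720 CPM in L-15, and was higher, as was the cathepsin L AAEL002833, and without any 1 of the 6 libraries 1 of these 2 calls was made. Cystinosin (AAEL006113), which exports cystine from lysosomes, was at 50.8, 38.3 and 35.6 CPM, against 26.8, 16.2 and 16.4 CPM (adjusted p = 0.037, edgeR quasi-likelihood test).

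Of 9 ABC and other exporters 2 were higher and 1 lower, and of 12 amino acid transporters likewise 2 and 1, against 15% higher and 14.5% lower over all genes. Without replicate 1 of 10 μM heme 3 exporters and 2 amino acid transporters were lower, and 1 amino acid transporter was higher without replicate 2 or replicate 3 of either group. Without replicate 2 of SF900 II no amino acid transporter was lower. Of 3 antioxidant enzymes 1 was higher and 1 lower, and so were 1 and 1 of 4 genes of sterol and isoprenoid handling. Both of these increases were lost without replicate 2 or replicate 3 of either group. The ABC transporter AAEL008624 was at 6.59, 11.4 and 11.1 CPM in SF900 II, against 2.27, 1.95 and 2.00 CPM in L-15. The orthologue of ABCB10 (AAEL000434), a mitochondrial ABC transporter, was at 47.6, 49.6 and 48.2 CPM, against 54.3, 38.1 and 39.7 CPM, and did not pass (adjusted p = 0.50, edgeR quasi-likelihood test). The insulin-like receptor InR (AAEL002317) averaged 110 ± 9.32 CPM in SF900 II and 67.3 ± 9.12 CPM in L-15 and was higher, a call lost without any 1 of the L-15 libraries or without replicate 2 or replicate 3 of SF900 II. Lipin (AAEL005175), a phosphatase of glycerolipid synthesis that overlaps AAEL005202 by 17746 bases, was at 211, 181 and 175 CPM, against 338, 302 and 312 CPM, and lower. The Niemann-Pick C1 gene AAEL009531 held too few counts to be tested, and no gene is annotated as 5-aminolevulinate synthase in the sources used.

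The study put forward 40 genes as candidate heme transporters on heme-exposed midguts, of which 34 were tested here. Those it took on to RNA interference in cells were also required to change in at least 1 experiment on cultured cells, so the direction of those genes here is not independent evidence. At FDR 0.05, 8 of the 34 were higher and 1 lower, against 15% higher and 14.5% lower over all genes tested. Their median log2 fold change was 0.43, and 2, AAEL019869 and AAEL005013, passed at 0.0001. Without replicate 1 of 10 μM heme, 15 were higher and 3 lower at 0.05. AAEL019869 was at 20.5, 25.4 and 27.0 CPM in SF900 II, against 1.34, 1.31 and 1.60 CPM in L-15 (4.10 ± 0.31), and AAEL005013 at 29.7, 28.9 and 30.7 CPM, against 4.57, 3.93 and 3.49 CPM (2.89 ± 0.20). AAEL001495 was at 43.3, 51.0 and 50.1 CPM, against 5.15, 6.92 and 5.57 CPM (3.03 ± 0.25, adjusted p = 0.00011, edgeR quasi-likelihood test). AAEL012440, the sodium-bile acid cotransporter of the second primer pair, was at 26.7, 27.5 and 28.5 CPM, against 12.3, 15.2 and 14.4 CPM (0.98 ± 0.13, adjusted p = 0.00072, edgeR quasi-likelihood test). Of the 14 genes with a primer pair, 12 were tested, 4 were higher at 0.05 and 1, AAEL015458, at 0.0001.

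Few markers of other cell types could be looked up, since descriptive names were at hand for 767 of the 12249 genes tested. These names came mostly from gene clusters that the study formed on Aag2 cells, by expression with serum, without it and with heme. The groups of named genes are therefore not a neutral sample of all genes. Of the named genes 13.6% were higher and 29.1% lower at FDR 0.05. LRIM1 (AAEL012086), a leucine-rich immune protein of hemocytes, was at 5.86, 6.50 and 6.59 CPM in SF900 II, against 0.160, 0.187 and 0.509 CPM in L-15 (log2 fold change 4.46 ± 0.56), and LRIM18 (AAEL012911) was at 12.9, 13.3 and 12.1 CPM, against 11.4, 9.39 and 9.46 CPM. The summed level of this pair was 18.7 to 19.8 CPM in SF900 II and 9.58 to 11.5 CPM in L-15. Of 2 trypsins taken as midgut markers, given above, 1 was higher, with sums of 10.7 to 14.2 CPM in SF900 II and 4.08 to 6.91 CPM in L-15. Paramyosin (AAEL000485), a muscle protein, was at 143, 135 and 141 CPM, against 122, 109 and 119 CPM, and passed with library size alone (adjusted p = 0.023) but not in the comparison as fitted (0.054, edgeR quasi-likelihood test). None of these 5 markers was at 0 in any of the 6 libraries compared, while LRIM1 was at 0 in replicate 2 of 10 μM heme. The part of a change in cell types in the immune and protease results was not tested.

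The A20 group with heme added, 10 μM heme in SF900 II, gives the level of the same genes in the same medium. It shares no library with the 2 groups compared, but a comparison with 0 μM heme would share the 3 libraries of 0 μM heme, so its values are only set beside them. AAEL001794 was at 1.60, 0.547 and 0.432 CPM in 10 μM heme, AAEL011622 at 1.04, 0.851 and 1.08 CPM and AAEL019869 at 2.83, 1.52 and 1.13 CPM. For these 3 genes the level with heme added was near that in L-15 with FBS given above. AAEL021557 stayed between the other groups, at 8.86, 6.93 and 5.40 CPM, and AAEL022334 likewise, at 4658, 5931 and 5025 CPM. Ribosomal protein genes exceeded the L-15 level there, with sums of 129200 to 173100 CPM in 10 μM heme. RpS6 was at 7612, 7754 and 7618 CPM there.

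Serum was also removed from Aag2 cells, another Ae. aegypti line, for 72 h without a change of basal medium, which allows the A20 change to be set against a change of serum alone in L-15. The difference between the 2 changes was tested as an interaction over 12 libraries, 3 of A20 in SF900 II, 3 of A20 in L-15 with FBS, 3 of Aag2 in L-15 without serum (0 μM heme) and 3 of Aag2 in L-15 with FBS. Cell line and basal medium cannot be told apart in it, and CPM of this interaction, also in the paragraphs that follow, are scaled over these 12 libraries and so differ from those above. Of 13915 genes tested, 1422 (10.2%) differed at FDR 0.0001, 897 (6.45%) with a more positive and 525 (3.77%) with a more negative change in A20. In some of them both lines changed at 0.0001 with opposite signs, 95 higher in A20 and lower in Aag2 and 48 the reverse. In this fit 1043 genes (7.5%) were higher and 809 (5.81%) lower in A20 at 0.0001, and 869 (6.25%) were higher and 1350 (9.7%) lower in Aag2.

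AAEL015458 differed by 10.56 ± 0.36 on the log2 scale (adjusted p = 1.4e-09, edgeR quasi-likelihood test of the interaction). In Aag2 cells it was at 54.1, 52.8 and 54.8 CPM without serum, against 93.8, 105 and 114 CPM with FBS, so that it was well expressed in both Aag2 groups. AAEL001077 was at 27.6, 36.2 and 38.3 CPM in A20 in SF900 II and had no count in A20 in L-15, whereas Aag2 cells held 23.9, 25.6 and 29.7 CPM without serum, against 37.4, 40.5 and 43.5 CPM with FBS. AAEL003857 was at 786, 1502 and 1371 CPM in A20 in SF900 II, against 0.248, 0.436 and 0.330 CPM in A20 in L-15, and at 3.46, 3.59 and 4.09 CPM in Aag2 without serum, against 1.37, 2.05 and 2.22 CPM with FBS. AAEL003832 and AAEL025975 complete the 5 most positive differences at a mean of at least 10 CPM, and both were under 10 CPM in each Aag2 library. The fibrinogen and fibronectin gene AAEL009384 went opposite ways, at 30.6, 79.0 and 84.0 CPM in A20 in SF900 II, against 3.23, 4.36 and 3.20 CPM in L-15, and at 9.07, 8.86 and 10.5 CPM in Aag2 without serum, against 73.8, 76.6 and 82.2 CPM with FBS (difference 7.20 ± 0.44).

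Among genes with a mean of at least 10 CPM over the 12 libraries, the most negative differences were those of CYP307A1, AAEL000080, AAEL006581, AAEL003462 and AAEL012858. CYP307A1 (AAEL009762) was at 99.2, 46.8 and 47.8 CPM in A20 in SF900 II, against 223, 221 and 216 CPM in L-15, and at 113, 123 and 115 CPM in Aag2 without serum, against 17.0, 12.8 and 15.1 CPM with FBS (difference -4.73 ± 0.34). AAEL000080 was at 318, 326 and 287 CPM in A20 in SF900 II, against 649, 530 and 556 CPM in L-15, and at 590, 580 and 557 CPM in Aag2 without serum, against 64.3, 61.2 and 59.5 CPM with FBS. Both genes were lower without serum in A20 and higher without serum in Aag2. AAEL003462 was at 9.81, 11.1 and 10.2 CPM in A20 in SF900 II, against 10.6, 12.1 and 10.6 CPM in L-15, and at 109, 115 and 108 CPM in Aag2 without serum, against 10.5, 8.502 and 6.83 CPM with FBS, so that a change was called in Aag2 and not in A20. RpS6 (AAEL000032) was lower in both lines, at 3360, 3042 and 2826 CPM in A20 in SF900 II, against 5032, 5349 and 5162 CPM in L-15, and at 1745, 1807 and 1692 CPM in Aag2 without serum, against 2911, 3325 and 3420 CPM with FBS (difference 0.13 ± 0.10, adjusted p = 0.34, edgeR quasi-likelihood test of the interaction). Over the 27 ribosomal protein genes the median log2 fold change was -0.58 in A20 and -0.81 in Aag2. These genes were named from clusters that the study formed on Aag2 expression with serum, without it and with heme. Their change in Aag2 is therefore not independent of how they were chosen. Of these genes 1 had a negative interaction at 0.0001, and at FDR 0.05 the interaction was positive for 10 of them (23.8% of all genes) and negative for 1 (18.4%). Of the 9 iron and heme genes 6 had a positive interaction at 0.0001 (6.45% of all genes) and 1 a negative one (3.77%), the zinc/iron transporter AAEL013756. At FDR 0.05, 6 were positive (23.8% of all genes) and 2 negative (18.4%). Of the 6, coproporphyrinogen III oxidase (AAEL013389) fell in both lines, and transferrin (AAEL011641) and the ZIP transporter AAEL014762 rose in both. AAEL007385 was level in Aag2, at 428, 411 and 419 CPM without serum, against 431, 417 and 416 CPM with FBS, and differed between the lines by 1.60 ± 0.07.

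**Figure D5:**
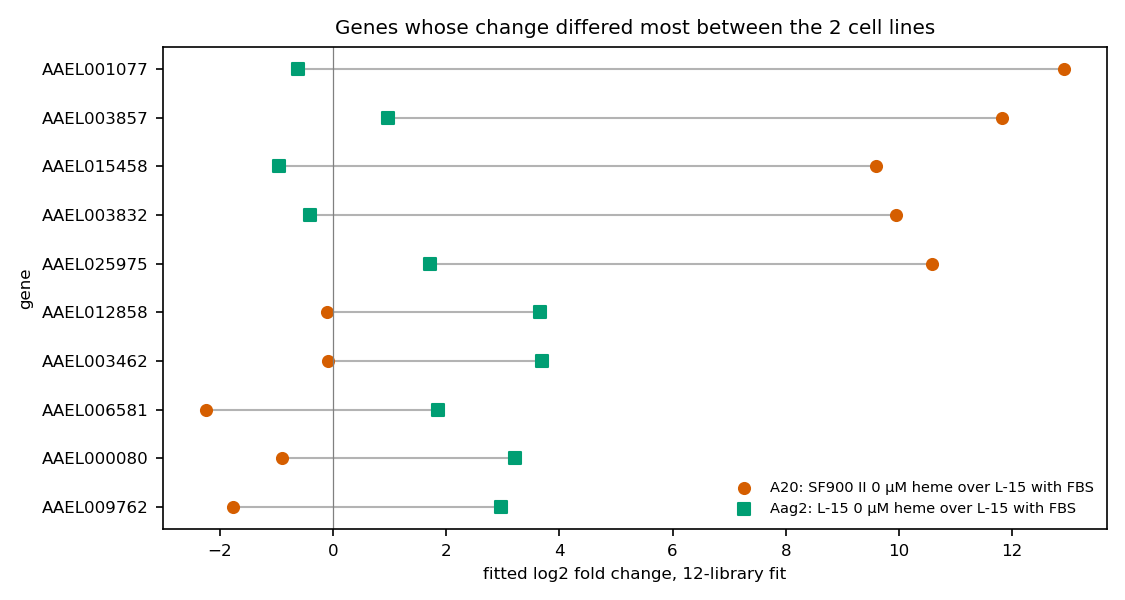
Fitted log2 fold change (horizontal axis) of the 5 genes with the most positive and the 5 with the most negative interaction among those with a mean of at least 10 CPM over the 12 libraries, for A20 (circles, SF900 II 0 μM heme over L-15 with FBS) and Aag2 (squares, L-15 0 μM heme over L-15 with FBS); the distance between the symbols is the tested difference. It ran from -4.73 for AAEL009762 to 13.54 for AAEL001077, whose A20 value rests on L-15 libraries without a count.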

How the data were processed

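Poly(A) RNA of A20 cells was sequenced in pairs of reads. Per the study's methods, the authors aligned reads to AaegL5 with HISAT2 2.1.0, kept alignments with SAMtools at a mapping quality of at least 10, and deposited raw counts per gene, made with bedtools 2.19.1 over transcripts of each gene. Use of strand in counting is not given in the sources used here, so overlapping genes are uncertain.

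Counts were tested here as deposited in R 4.3.3 with edgeR 4.0.16 and limma 3.58.1: filterByExpr (minimum count 10, minimum total 15), TMM factors, and the quasi-likelihood F test over the 9 A20 libraries, with the contrast SF900 II 0 μM heme minus L-15 with FBS and Benjamini-Hochberg adjustment over all genes tested. The 10 μM heme libraries share the estimate of the spread. The SE of a log2 fold change was derived as its absolute value over the square root of the F statistic. It is therefore approximate, above all for genes nearly silent in 1 group. The interaction with Aag2 cells was fitted over 12 libraries. DESeq2 1.42.0, the exact test of edgeR, other scalings and filters, a replicate block, 6 libraries and each library left out were alternatives. Figures were drawn with Python 3.11.15 and matplotlib 3.10.9. The methods call replicates biological, without saying whether cultures were separate, so p-values measure the spread between these libraries.

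In data simulated for the A20 comparison, on 12249 genes, the test recovered 59% of 4-fold changes and 0% of 2-fold changes at FDR 0.0001, and 98% and 65% at 0.05. The simulation changed 100 genes at each size, none at the lowest levels, whereas 29.5% of genes were called in the data at 0.05. It also gave replicate 1 no separate behavior. These shares may therefore not hold for the data.

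The genes and gene groups were chosen with earlier results of these data known. Genes named from the comparison were the 12 with the largest and the 12 with the smallest change among those past FDR 0.0001, without overlap of groups and with a mean of at least 10 CPM over the 6 libraries (3 genes on the lower side), up to 4 members of each group past 0.0001, and the 5 most positive and 5 most negative interactions past 0.0001 with a mean of at least 10 CPM over the 12 libraries. Others are said in the text to be chosen with their values known, or illustrate a group by its members. Descriptive names came from part of a supplementary table of the study and from its text, and identifiers without one are given as they are. For AAEL015458, AAEL007383, AAEL007385 and AAEL008136 the name under which each was listed is given as well.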

Additional observations from a re-analysis of the deposited data

Results flagged for a closer look

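For 40 of the genes given above, the change in A20 cells (SF900 II without serum over L-15 with FBS) differed from the change in Aag2 cells (L-15 without serum over L-15 with FBS) at FDR 0.0001 by the interaction term of the edgeR quasi-likelihood test. Over all 13915 genes tested 1422 (10.2%) did so. Many of the 40 were chosen for this interaction or for their A20 change, which uses the same A20 libraries. Their number is therefore not a result. The differences are A20 minus Aag2 on the log2 scale, and the part of the cell line and that of the basal medium in them cannot be told apart.

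Among the genes with the largest A20 increases, the difference was 10.56 for AAEL015458, 8.20 for AAEL014382, 7.32 for AAEL009722, 6.87 for AAEL001794, 5.59 for AAEL003156 and 5.52 for AAEL002595. It was 4.85 for AAEL011007, 4.83 for AAEL021557, 4.08 for AAEL011622, 3.57 for AAEL007626 and 2.02 for AAEL024741. For genes nearly silent in A20 in L-15 it was 13.54 for AAEL001077, whose A20 libraries in L-15 held no count, 10.85 for AAEL003857, 10.37 for AAEL003832 and 8.86 for AAEL025975. Of the candidate genes of the study, AAEL019869 differed by 3.62. Of the genes that fell in A20, AAEL005777 differed by -4.93, AAEL009480 by -1.90 and the U3 ribonucleoprotein imp4 (AAEL004997) by -1.35.

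Among immune genes and proteases the difference was 7.20 for AAEL009384, 4.80 for SRPN4 (AAEL013936), 4.55 for LRIM1 (AAEL012086) and 1.99 for the trypsin AAEL002273. Among iron and heme genes it was 1.60 for AAEL007385, 1.42 for AAEL007383, 1.38 for transferrin (AAEL011641), 1.24 for coproporphyrinogen III oxidase (AAEL013389), 0.93 for the ZIP transporter AAEL014762 and -1.18 for AAEL013756. The log2 fold changes in A20 and Aag2 were 1.59 and -0.01 for AAEL007385 and 1.67 and 0.25 for AAEL007383. Transferrin rose in both lines (1.94 and 0.56), as did AAEL014762 (1.92 and 0.99) and AAEL013756 (0.37 and 1.55). Coproporphyrinogen III oxidase fell in both (-0.32 and -1.55). Among other named genes it was 3.23 for the ABC transporter AAEL008624, 2.92 for gelsolin (AAEL006095), 2.82 for UDP-glucose 4-epimerase (AAEL007018), 1.92 for CYP9J2 (AAEL006805), 1.76 for integrin alpha-ps (AAEL011038) and 1.52 for AAEL013341. The most negative values among the named genes with a mean of at least 10 CPM were -4.73 for CYP307A1 (AAEL009762), -4.12 for AAEL000080, -4.10 for AAEL006581, -3.78 for AAEL003462 and -3.76 for AAEL012858.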

How the results depend on the processing

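At FDR 0.0001, 53 genes were called, 49 higher and 4 lower in SF900 II. The counts (total, higher, lower) were 1153, 793 and 360 with the exact test of edgeR, 1529, 780 and 749 with DESeq2, 58, 51 and 7 with RLE size factors, 21, 21 and 0 with library size alone (quasi-likelihood test, where 4815 genes had an unadjusted p under 0.05), 157, 125 and 32 without a filter, 48, 45 and 3 with more than 1 CPM in 3 libraries, 191, 170 and 21 with the 6 libraries alone, and 3614, 1839 and 1775 at FDR 0.05. All 53 were shared with the exact test and with DESeq2. They ranged from 0 to 571 in total, from 0 to 374 higher and from 0 to 197 lower with each library left out. With replicate 1 of both groups left out, chosen after seeing the data, they were 2, 2 and 0.

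At FDR 0.05, also added after seeing the data, the counts were 5523, 2841 and 2682 with the 6 libraries, 2369, 1215 and 1154 with replicate 1 of both groups left out, and 2117 to 5639, 1177 to 2776 and 934 to 2863 with each library left out. The interaction gave 5867, 3313 and 2554 genes at FDR 0.05, against 1422, 897 and 525 at 0.0001, and 844 to 1654, 549 to 1070 and 295 to 584 with each library left out.

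With a replicate block the comparison gave 13, 12 and 1 calls at 0.0001, 9 of them among the 53, and 3156 at 0.05, and the interaction gave 660, 451 and 209. Same-numbered libraries of the 2 groups had deviations that correlated at 0.13, 0.06 and 0.05, and differently numbered ones at -0.11 to 0.076. The methods state no pairing, and the numbers were not taken to pair the libraries. These values do not settle whether they were paired. AAEL012858 and AAEL003462, not called in A20, changed sign with library size alone, to 0.021 and 0.028. The cause of these shifts was not tested. The planned search of promoters for motifs was not run, since promoter sequence was not used here.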
